A study of Mus musculus with 12 samples.

Results

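BRG1-binding regions were described at 6 genes: Zfp423, its paralogue Zfp521, and the 4 genes Ebf1, Ebf2, Ebf3 and Ebf4, whose proteins bind both zinc finger factors. The group was chosen by a measured value, since Zfp423 was selected on carrying one of the widest regions in wild-type CPs, and the other 5 genes were added as its paralogue and partners. Each distinct region was assigned to a gene if it lay within 1 kb of an annotated transcription start site (TSS), in the gene body or within 100 kb of the gene. Of the 3473 distinct regions listed for wild-type CPs, 5 met the rule, at 3 of the 6 genes. By the same rule, 40.3% of all protein-coding genes had a region, and 50.1% of those of 75 kb or longer, as all 6 genes are. Since width chose Zfp423, the width of its region, the rank and the number of rows are given as a description.

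The cells were cardiac precursors (CPs), labelled as cardiac progenitors derived from embryonic stem cells of the wild-type mouse line W4/129S6 at passage 15-20, and differentiated through embryoid bodies with VEGF, Activin and BMP4 and then as monolayers with FGFs. ChIPseq for BRG1, the ATPase of the BAF chromatin remodelling complex, sequences the DNA recovered with that protein, and 2 ChIP libraries and 1 input library stood behind the single list of regions. The other 9 of the 12 libraries, taken from cardiac myocytes or from knockouts of BAF170 or BAF60c, are not described. The list gives positions on the mouse assembly mm9 with no height, enrichment or P-value, and library depth is unknown. No spread between replicates can thus be given and no difference was tested, and a gene without a listed region may lack BRG1 or may have failed the authors' threshold. The stage of the list was taken from its label alone, and the sources used here do not settle whether its distinct regions stand for CPs or for cardiac myocytes. The label of the cells could not be checked against marker genes, since positions give no expression, and no RNA level of the 6 genes was used here.

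ZFP423 and ZFP521 are nuclear proteins built from long arrays of C2H2 zinc fingers. ZFP423 is known as a binding partner of EBF1, of SMAD proteins in the response to BMP and of retinoic acid receptors, and it marks committed fat cell precursors and is needed for cerebellar development. ZFP521 shares most of that architecture, binds EBF1 and recruits the NuRD corepressor complex. The EBF proteins are helix-loop-helix factors with their own zinc-containing DNA-binding domain, and they bind as dimers to a palindrome whose letters are TCCCNNGGGA on both strands. EBF1 is best known for specifying B lymphocytes, EBF2 for brown fat and neurons, EBF3 for neurons and muscle, and EBF4 is the least studied of them. In the coding sequence of the annotated transcripts, Zfp423 and Zfp521 were identical at 73.0% of 3740 aligned bases. Among the Ebf genes, the identity ran from 71.3% between Ebf2 and Ebf4 to 79.6% between Ebf1 and Ebf3. Reads could be placed at these genes, since each word of 75 bp, the length of the reads, was found once in mm9 in all 5 regions. It was also found once in every 1 kb window around the annotated TSSs of the 6 genes, except at the start of transcript Ebf1-004, where 95.5% of the words were unique.

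The sequences below are mm9 and are read in the direction of transcription of the gene they are named for. In the first 5 of them the capitals mark CpG, the dinucleotide that is dense in CpG islands. The first is a stretch of 300 bases of the wide Zfp423 region directly before the first exon (chr8:90483495-90483794, minus strand), and the next is the whole region in the Zfp423 body (chr8:90251186-90251285, minus strand). The whole region in intron 1 of Ebf1 (chr11:44431866-44431985, plus strand) follows. The last pair are 120 bases before the 5′ ends of Ebf3 (chr7:144506129-144506248, minus strand) and Ebf2 (chr14:67852009-67852128, plus strand), which had no listed region and are shown for comparison.
Zfp423 promoter: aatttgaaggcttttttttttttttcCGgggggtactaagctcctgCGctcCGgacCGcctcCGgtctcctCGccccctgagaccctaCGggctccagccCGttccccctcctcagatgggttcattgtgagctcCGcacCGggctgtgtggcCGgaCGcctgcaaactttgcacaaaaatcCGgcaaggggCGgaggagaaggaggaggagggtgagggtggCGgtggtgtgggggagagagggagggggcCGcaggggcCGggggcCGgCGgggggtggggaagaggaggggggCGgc
Zfp423 body: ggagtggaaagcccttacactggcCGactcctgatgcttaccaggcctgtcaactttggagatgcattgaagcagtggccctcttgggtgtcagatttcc
Ebf1 intron 1: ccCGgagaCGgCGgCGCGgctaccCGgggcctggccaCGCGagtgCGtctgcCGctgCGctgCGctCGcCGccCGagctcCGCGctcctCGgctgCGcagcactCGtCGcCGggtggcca
Ebf3 promoter: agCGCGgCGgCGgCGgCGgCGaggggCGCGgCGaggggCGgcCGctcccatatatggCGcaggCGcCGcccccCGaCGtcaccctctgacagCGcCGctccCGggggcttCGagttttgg
Ebf2 promoter: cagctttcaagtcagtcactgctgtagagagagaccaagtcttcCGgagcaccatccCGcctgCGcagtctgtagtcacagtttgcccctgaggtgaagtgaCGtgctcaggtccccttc
The 300 bases before Zfp423 held 20 CpG, the 120 bases of the Ebf1 region 22, and the 120 bases before Ebf3 held 21, whereas the 120 bases before Ebf2 held 4. The CpG-dense stretch printed for Ebf3 was thus without a region, while the less dense stretch printed for Zfp423 lay inside the second widest one. These stretches do not stand for the whole promoters. Within 1 kb of the 5′ end there were 211 CpG at Zfp423 and 213 at Ebf3.

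Zfp423 (ENSMUSG00000045333) spans chr8:90185709-90483494 (minus strand), is 297.8 kb long and has 7 annotated TSSs. It carried 3 of the 5 regions and 4560 of the 5060 bp they covered. One region lay at the promoter, a second in the gene body and the third past the 3′ end, so the gene had 0.603 regions per 100 kb of the 497.8 kb searched. The promoter region (chr8:90481926-90486245) was 4320 bp wide and was listed on 16 rows. The other 2 were 100 and 140 bp wide and were on 1 row each.

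The Zfp423 promoter region was 12 times as wide as the median distinct region, which measured 360 bp, and ranked second of 3473. It ranked 4 once regions with gaps of up to 2 kb were merged. The next wider region (chr17:39980086-39984605) measured 4520 bp and overlapped no promoter in the annotation used, and what its sequence is was not examined here. The next narrower, at the promoter of the bromodomain gene Brd2, measured 3440 bp. Of all the sequence covered by the list, 0.256% lay in the Zfp423 promoter region. By number of rows it shared rank 3 with the promoter region of the BAF subunit gene Arid1a, also on 16 rows, behind 2 regions on 20 rows. Regions on 1 row were the narrowest, with median widths of 260 bp for the 2680 regions on 1 row, 820 bp for the 590 on 2 rows, 1460 bp for the 37 on 3 rows and 1120 bp for the 127 on 4 rows. The numbers of rows that occurred were 1, 2, 3, 4, 6, 8, 9, 12, 16 and 20, and what a repeated row stands for is not stated in the sources used here.

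**Figure D1:**
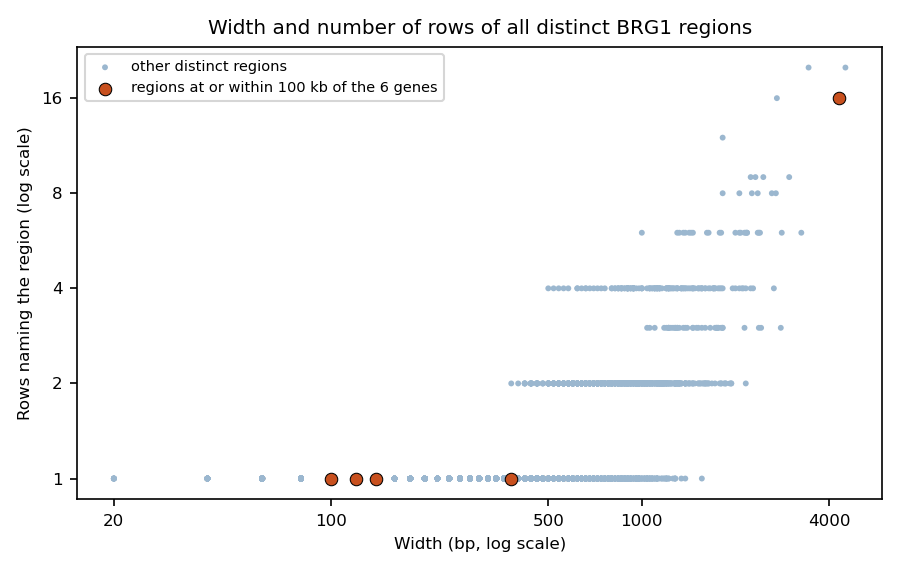
Width in bp (x axis, log scale) and number of rows naming the region (y axis, log scale) for the 3473 distinct regions, with the 5 regions at or within 100 kb of the 6 genes in orange. The Zfp423 promoter region, at 4320 bp and 16 rows, stands at the upper right, while the other 4 are on 1 row each at 100 to 380 bp.

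The wide region covered the start of Zfp423 from both sides. Its part upstream of the 5′ end measured 2751 bp, or 63.7% of the region, exon 1 took 400 bp and intron 1 took 1169 bp. The midpoint lay 0.59 kb upstream of the 5′ end at 90483494, the start of transcript Zfp423-001. The other 6 annotated TSSs of Zfp423 begin within the gene, at the starts of transcripts Zfp423-002 to Zfp423-007, and no region lay within 1 kb of them. The nearest of these, the start of Zfp423-005, was 6.32 kb from the midpoint, and the farthest in position, the starts of Zfp423-003 and Zfp423-004, were 77.1 and 76.5 kb from the body region. The region stood alone at its locus, with gaps of 230.6 kb to the next region on the gene side and 236.7 kb on the far side. Gaps at least as large as the smaller of these on both sides were found for 33.0% of regions, and the median smaller gap was 136.1 kb.

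The wide region lay over a CpG-dense stretch. Inside it there were 362 CpG, or 8.38 per 100 bp, at a GC content of 67.2% and a ratio of observed to expected CpG of 0.742. In flanks of the same width, the density was 0.903 per 100 bp on the gene side and 1.64 on the far side. Within the region, exon 1 was densest with 11.5 CpG per 100 bp, followed by intron 1 with 9.58 and the upstream part with 7.42. In 200 bp windows, the density peaked at 17.0 per 100 bp at 400 bp past the 5′ end. Beyond the upstream edge of the region, the density stayed between 5 and 7.5 per 100 bp in windows centred up to 3200 bp from the 5′ end and was 0.5 at 3300 bp. Beyond its edge in intron 1, the density was 3 per 100 bp at 1600 bp and 0.5 at 1900 bp. The GC content of the region was below the median of 72.4% over all distinct regions and of 74.1% over those at promoters.

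The 2 small Zfp423 regions lay in other sequence. The region in the body was 232.3 kb from the 5′ end, in an intron and 39200 bp from the nearest exon, exon 6 of Zfp423-001. Its GC content was 54.0%, with 1 CpG, and the flanks of the same width had 56.0% and 54.0% with 2 CpG each. The third region (chr8:90156366-90156505) lay 29.2 kb past the 3′ end of the gene and 327.1 kb from its 5′ end. The annotated TSS closest to it was that of a 7SK small RNA copy, at 4.12 kb, and thus not one of Zfp423. It held no CpG at a GC content of 55.7%, against 44.3% in both flanks of the same width. Both values were near the median GC content of 54.5% over the 907 distinct regions away from promoters. By width, these 2 regions stood low, with 3293 of the 3473 regions at least as wide as the one in the body and 2970 at least as wide as the one past the gene.

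**Figure D2:**
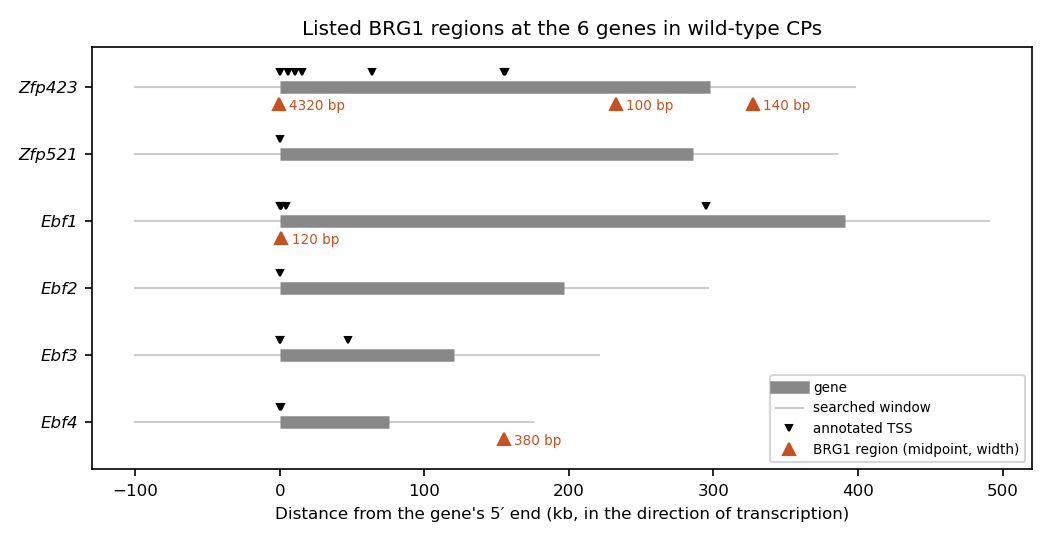
Distance from the 5′ end of each gene in kb (x axis, in the direction of transcription) for the 6 genes, with gene bodies as grey bars, the searched window as a line, annotated TSSs as black triangles and midpoints of listed regions as orange triangles with their width in bp. Zfp423 has 3 regions, of 4320, 100 and 140 bp, Ebf1 and Ebf4 have 1 each, and Zfp521, Ebf2 and Ebf3 have none.

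Ebf1 (ENSMUSG00000057098) was the other gene of the 6 with a region at a promoter. It spans chr11:44430819-44821593 (plus strand), 390.8 kb, and has 5 annotated TSSs. The single region (chr11:44431866-44431985) was 120 bp wide, was on 1 row and lay in intron 1, 52 bp past the end of exon 1. Its midpoint was 1.11 kb downstream of the 5′ end of the gene but 0.245 kb from the start of transcript Ebf1-006 and 0.307 kb from that of Ebf1-005. Counting only the 5′ end of each gene therefore left Ebf1 without a promoter region and Zfp423 as the only one of the 6 with one. RefSeq places a start of Ebf1 at 44431602 in mm9, found by an exact match of its promoter sequence, and the midpoint was 323.5 bp from it. The symbol Ebf1 is also carried by a short pseudogene annotated at the same start, and the protein-coding entry was used.

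The Ebf1 region sat on the CpG peak of its locus. Its GC content was 80.0% and its ratio of observed to expected CpG was 1.15, with 18.3 CpG per 100 bp, against 11.7 and 6.67 in flanks of the same width. In 200 bp windows across 5 kb either side of the 5′ end, the density was highest at 1100 bp downstream, with 14.0 CpG per 100 bp, and that window overlapped the region. Over 1 kb either side of the 5′ end, the GC content was 48.8% and the ratio 0.573, which 62.6% of protein-coding genes did not exceed. Of the 3473 distinct regions, 3153 were at least as wide as that of Ebf1. No region was listed in the remaining body of Ebf1, which is the longest of the 6 genes, nor in the 100 kb on either side, although 590.8 kb were searched.

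Ebf4 (ENSMUSG00000053552), at chr2:130120905-130196217 (plus strand), had no region at its 2 annotated TSSs or in its body of 75.3 kb. The region counted within 100 kb (chr2:130275886-130276265) was 380 bp wide, was on 1 row and lay 79.7 kb past the 3′ end of Ebf4. Its midpoint was 61.5 bp from a TSS of Ptpra, which encodes a receptor-type tyrosine phosphatase, and 154.4 kb from the nearest TSS of Ebf4. With 76.3% GC and a CpG ratio of 1.01 it had the composition of regions at promoters, whose medians were 74.1% and 0.903. Without it, 4 regions were left within 100 kb of the 6 genes, at Zfp423 and Ebf1.

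Zfp521, Ebf2 and Ebf3 had no region at a TSS, in the body or within 100 kb. For Zfp521 (ENSMUSG00000024420, chr18:13845522-14131242, minus strand), the nearest region, 760 bp wide, had its midpoint 709.9 kb upstream of the 5′ end, a distance that 79.9% of protein-coding genes did not exceed. For Ebf2 (ENSMUSG00000022053, chr14:67852129-68048604, plus strand), the nearest was 482.3 kb from the 5′ end. It was 180 bp wide and lay 0.0535 kb from a TSS of Kctd9, a gene for a BTB domain protein, and 0.498 kb from one of Cdca2, which encodes a protein of the dividing cell. For Ebf3 (ENSMUSG00000010476, chr7:144385356-144506128, minus strand), the nearest was 100 bp wide, 309.4 kb from the 5′ end. It was closer to a TSS of Mgmt, a DNA repair gene, at 110.5 kb, than to any TSS of Ebf3. The median distance over protein-coding genes was 174.1 kb, so Zfp423, Ebf1 and Ebf4 with 0.592, 1.11 and 155.2 kb were below it and these 3 genes above it. The paralogues Zfp423 and Zfp521, of similar length at 297.8 and 285.7 kb, had 3 regions and none, and Ebf2 and Ebf3 had none as well. Zfp423 was chosen for its promoter region, so its difference from Zfp521 was in part fixed by the choice. Its other regions were 100 and 140 bp wide.

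Against the background, 2 of the 6 genes had a region within 1 kb of a TSS, where the share over 22380 protein-coding genes was 11.9%. A region in the gene or within 100 kb was found for 3 of 6, against 40.3%. A region in the body away from the gene's own TSSs was found for 1 of 6, Zfp423, against 1.85%. All 6 genes are longer than 75 kb, and over the 3272 protein-coding genes of at least that length the same 3 shares were 26.9%, 50.1% and 7.30%. The first 2 counts, 2 and 3 of 6, were close to the shares over such long genes. Since Zfp423 was chosen for its promoter region, 1 gene in each of these 2 counts was fixed by the choice. Without Zfp423, 1 of the other 5 genes had a region at a promoter, Ebf1, and 2 had one within 100 kb, of which that near Ebf4 was at the promoter of Ptpra.

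The 5′ ends of the 6 genes differed in CpG content. Over 1 kb either side of the 5′ end, the ratio of observed to expected CpG was 0.914 at Zfp521, 0.884 at Ebf3, 0.832 at Zfp423, 0.751 at Ebf4, 0.638 at Ebf2 and 0.573 at Ebf1. Of these 6 windows only that of Zfp423 overlapped a region, and its ratio was the third highest. Around the 2 inner starts of Ebf1 that had the region within 1 kb, the ratio was 0.690 and 0.699, above that of Ebf2 and below those of the 4 other genes. The median was 0.725 over the protein-coding genes with a region at a promoter and 0.411 over those without. GC content gave another order, with 71.4% at Zfp423, 69.4% at Ebf3, 68.3% at Ebf4, 52.9% at Ebf2, 50.9% at Zfp521 and 48.8% at Ebf1. Of the 3 genes whose window had at least 55% GC and a ratio of at least 0.65, namely Zfp423, Ebf3 and Ebf4, only Zfp423 had a region there. Over all 3821 protein-coding genes with such a window, 38.2% had a region within 1 kb of any annotated TSS. By that wider rule, too, Zfp423 was the only one of the 3 with a region. In length, the longest unbroken run of 200 bp windows with at least 4 CpG per 100 bp measured 2700 bp at Zfp423, 1900 bp at Ebf3, 1700 bp at Ebf4, 1500 bp at Ebf2, 1000 bp at Zfp521 and 700 bp at Ebf1. Zfp423 had the longest such run of the 6, but not the most such windows. Counted at the step of 100 bp each, they came to 5600 bp at Ebf3, 4700 bp at Ebf2 and 4200 bp at Zfp423. The other sums were 2900 bp at Ebf1, 2200 bp at Zfp521 and 1600 bp at Ebf4. A run was measured from the first edge to the last of its 200 bp windows, so runs and sums are not on the same scale. The mean density over 5 kb either side was 5.74 CpG per 100 bp at Ebf3 and 4.40 at Zfp423.

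**Figure D3:**
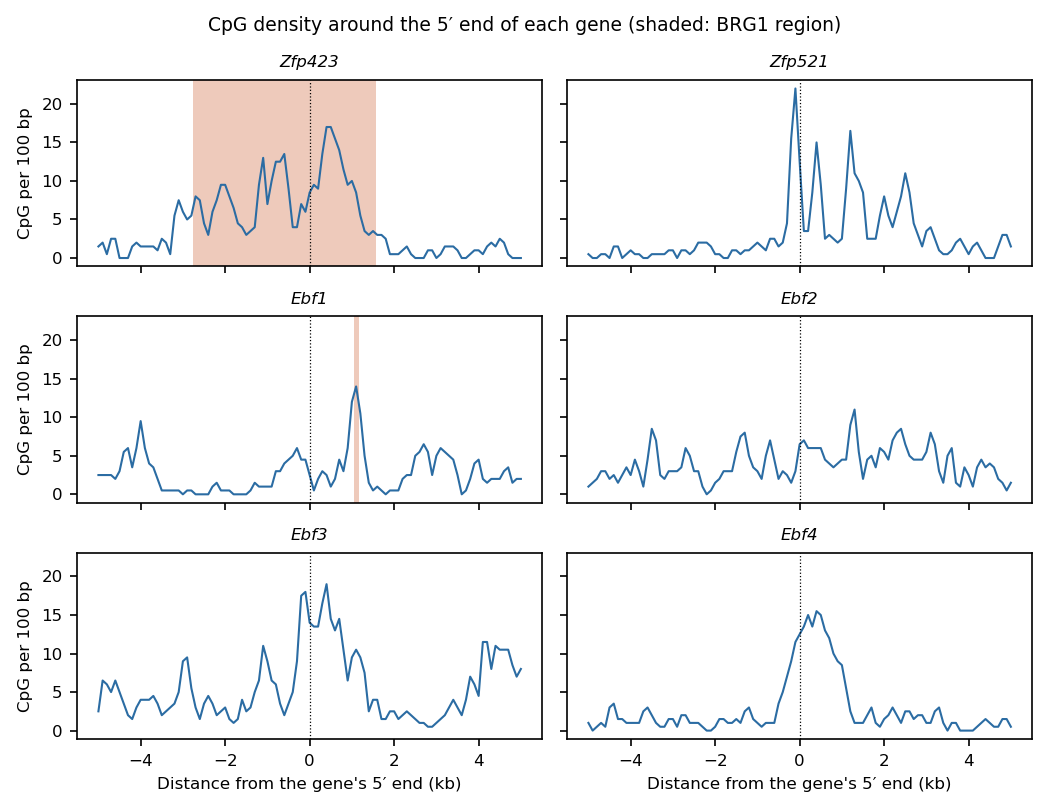
CpG per 100 bp in 200 bp windows every 100 bp (y axis) against the distance from the gene's 5′ end in kb (x axis) for the 6 genes, with listed regions shaded in orange. Within its shaded region the density at Zfp423 runs from 3 to 17, the region of Ebf1 covers the local peak of 14.0, and the peaks of 22 at Zfp521, 19 at Ebf3, 15.5 at Ebf4 and 11 at Ebf2 have no region.

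The EBF palindrome TCCCNNGGGA was searched on both strands and was in none of the 5 regions. Of all distinct regions, 3.05% held it, at 0.0635 matches per kb, so 5 regions without the palindrome are no contrast to that share. Its inner 8 letters, CCCNNGGG, which any match of the longer palindrome contains, were at 7 positions in the Zfp423 promoter region and in no other of the 5, against 41.3% of all distinct regions. Per kb, the wide region held 1.62 matches, close to the 1.53 per kb over all distinct regions. Of these 7, 3 lay upstream of the 5′ end, 1 in exon 1 and 3 in intron 1, and 2 of those in intron 1 overlapped, at 1049.5 and 1048.5 bp past the 5′ end. The GATA word AGATAA was in 2 of the 5 regions, both of Zfp423, against 10.1% of all distinct regions and 24.9% of those away from promoters. The wide region held 0.231 matches per kb, against 0.265 per kb over all distinct regions. One copy lay in the promoter region at -1245.5 bp from the 5′ end, that is upstream of it, and the other in the region past the 3′ end. The T-box word AGGTGTGA was in none of the 5 and in 0.921% of all regions. None of these words shows that a factor bound there, and a missing word shows only that its letters are not in that stretch.

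The region past the 3′ end of Zfp423 is printed whole on the minus strand, with the GATA word, here in its reverse form, in capitals, since it is the shorter of the 2 regions with such a word. The second sequence shows the single EBF palindrome within 1 kb of any annotated TSS of the 6 genes, in capitals. It lies at Ebf4 (chr2:130120963-130120992, plus strand), 72.5 bp past the 5′ end and in the untranslated part of the first exon of Ebf4-002, and 17 bases separate it from the start codon.
Zfp423 region past the gene: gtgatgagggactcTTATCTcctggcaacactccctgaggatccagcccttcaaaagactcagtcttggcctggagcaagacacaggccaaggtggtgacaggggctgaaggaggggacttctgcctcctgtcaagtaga
Ebf4 EBF word: cggctcccgcTCCCCAGGGAgcggcggcgg
Over all protein-coding genes, 6.07% had the palindrome within 1 kb of the 5′ end and 53.8% its inner 8 letters. The Ebf4 window held 5 copies of the inner letters, and no BRG1 region was listed there.

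Partners of ZFP423, ZFP521 and the EBF factors, together with genes of related pathways and lineages, were followed through 7 lists of genes. Of the 57 genes listed, 56 were found in the annotation by symbol. Of these 56, 18 had a region at a promoter, or 32.1%, and 40 had one within 100 kb, or 71.4%, against 11.9% and 40.3% over all protein-coding genes. The promoter share was 38.2% over genes with a CpG-rich 5′ end. Over genes of 75 kb or longer, the 2 shares were 26.9% and 50.1%. The lists were chosen with earlier results of these data known, so their shares are a description and were not tested. The median distance from the 5′ end to the nearest region midpoint was 38.1 kb over the 56, against 174.1 kb over all protein-coding genes. Among 9 BMP and SMAD genes, 4 had a promoter region, and all 9 had one within 100 kb. These were Smad1, which transmits the BMP signal, with 560 bp, the common partner Smad4 with 220 bp, and the inhibitors Smad6 with 1120 bp on 2 rows and Smad7 with 2660 bp on 4 rows. The BMP target genes Id1, Id2 and Id3 had none at a promoter, with the nearest region 28.5, 2.81 and 8.53 kb from the 5′ end. Of the 6 retinoic acid receptor genes, Rarb (560 bp), Rarg (100 bp), Rxra (260 bp) and Rxrb (600 bp) had a promoter region, Rara and Rxrg did not, and all 6 had one within 100 kb. At Rarb, Rarg and Rxra it lay at an inner TSS, with the nearest midpoint 243.3, 11.2 and 1.26 kb from the 5′ end. Of 4 Notch partner genes, the receptor gene Notch1 had 940 bp and the target gene Hes1 had 2 regions that summed to 800 bp, while Rbpj and Hes5 had none within 100 kb. The Notch1 region, too, lay at an inner TSS, with the nearest midpoint 12.6 kb from the 5′ end.

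Of the 13 genes for subunits of NuRD, the complex that ZFP521 recruits, 2 had a promoter region. This share of 15.4% was near the 11.9% over all protein-coding genes. The 2 were the remodeller gene Chd3 with 1200 bp on 4 rows and the deacetylase gene Hdac2 with 760 bp on 2 rows. Another 8 had a region within 100 kb only. In the lineages that these factors are known for, the shares with a promoter region ran from none to 4 of 10. The shares to set beside them are the same 11.9% at promoters and, within 100 kb, 40.3% over all protein-coding genes. Over genes of 75 kb or longer they are 26.9% and 50.1%. Of 9 adipocyte lineage genes found, Cebpb (940 bp) and Prdm16 (320 bp), both of which act in fat cell differentiation, had a promoter region. Within 100 kb, 5 of the 9 had a region, and Pparg had none. Of 10 early B cell genes, 4 had a promoter region, namely Pax5 (160 bp), Foxo1 (1280 bp), Tcf3 (100 bp) and Ikzf1 (160 bp), all genes for transcription factors. Those of Pax5 and Ikzf1 lay at inner TSSs, with the nearest midpoint 6.95 and 1.12 kb from the 5′ end. The genes for the B cell receptor parts Cd79a, Cd79b, Vpreb1 and Igll1 had none at a promoter. Within 100 kb, 7 of the 10 had a region, among them Cd79a and Cd79b but not Vpreb1 and Igll1. Of 5 olfactory neuron genes, none had a promoter region and 1, Omp, had one within 100 kb. None of the 18 genes reached the summed promoter width of 4320 bp at Zfp423, and the widest among them was the 2660 bp at Smad7.

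**Figure D4:**
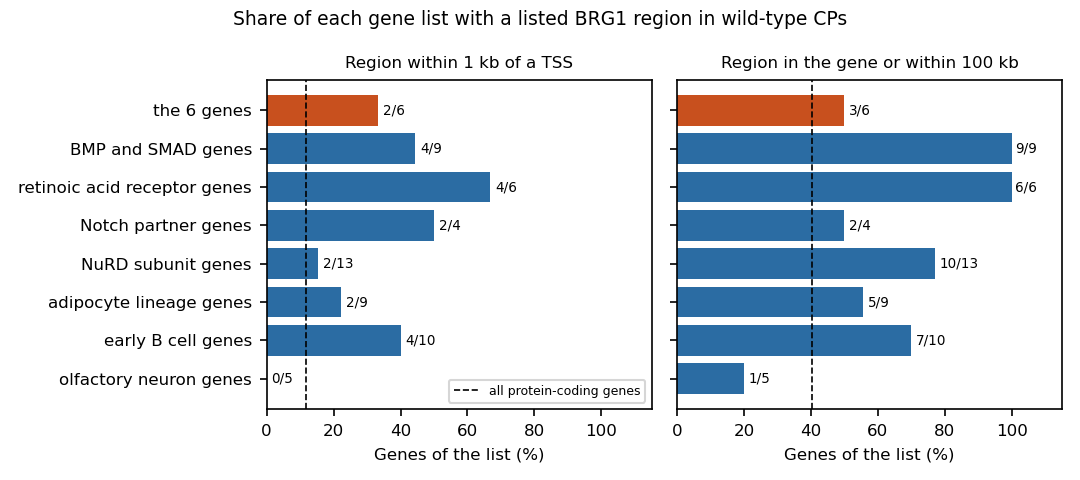
Percent of the genes of each list (x axis, bars, with counts beside them) that had a listed region within 1 kb of a TSS (left) or in the gene or within 100 kb (right), for the 6 genes in orange and the 7 related lists in blue. The dashed line is the share over all protein-coding genes, 11.9% on the left and 40.3% on the right, and the 6 genes stand at 2 of 6 and 3 of 6.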

How the data were processed

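Reads of 75 bp, sequenced from 1 end, were trimmed by the authors (fastq-mcf), mapped (Bowtie, mm9) and kept by mapping quality, and bins exceeding the input at a P-value threshold were called. Versions and the way the libraries were combined are not given in the sources used here. The deposited values are positions in bp, in 3 columns on a 20 bp grid, with starts read as 0-based and given here as 1-based. The list had 4791 rows, and a distinct region was counted once. No count, signal or P-value was deposited with it, so no test, error or paired fit was made.

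Regions were set against GENCODE M1 and the mm9 sequence with Python 3.11.15, numpy 2.4.6, pysam 0.24.0, biopython 1.88, numba 0.67.0, matplotlib 3.10.9 and samtools 1.23.1. Overlap, distance and word searches were tested on simulated data and recovered every planted value. RefSeq promoters (GRCm38.p6) were matched for 4 of the 6 genes, Zfp423, Ebf1, Ebf3 and Ebf4. Named are the 6 genes, genes nearer to their regions, list genes with a promoter region, and the 5 genes nearest to Zfp423 in summed promoter width. Other genes named were singled out after their values were seen. The genes and lists were chosen with earlier results of these data known. Alternatives were other windows, start sites, merging and row counting.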

Additional observations from a re-analysis of the deposited data

How the results depend on the processing

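Over 9 counts and values, 43 alternatives were run, 7 of them chosen after seeing the data, and 28 stayed within 1.5 times the reported count or value, or within the 95% Wilson interval of the genome-wide share. With only the 5′ end of each gene, 1 gene and 1 region at promoters were left, Zfp423 and its wide region, and the genome-wide share was 10.8%. Counting every annotated TSS, the share was 38.2% over genes with a CpG-rich 5′ end and 26.9% over genes of 75 kb or longer. Counting each row gave 17 at promoters, 18 in bodies, 20 within 100 kb and a summed width of 69860 bp. Without Zfp423, 2 regions and 500 bp within 100 kb were left. The width rank of the Zfp423 region was 4 after merging over gaps of up to 2 kb, 1 among regions at promoters and 1 on chromosome 8. The inner 8 letters of the EBF palindrome were in 1 region. For these moves the cause was not tested here.

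No paired analysis was possible because the 2 libraries stand behind 1 list without replicate columns. A single list gives no replicate error, depth is unknown, and weaker binding at Zfp521, Ebf2, Ebf3 or Ebf4 cannot be seen in it.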

Other observations

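By summed width of the distinct regions at its promoters, Zfp423 ranked first of the 2667 protein-coding genes that had any, at 4320 bp against a median of 420 bp and a 95th percentile of 1380 bp. This width chose the gene, so the rank is a description. The 5 genes nearest to it were Fgfr2 with 3480 bp in 2 regions, Brd2 with 3440 bp in 1, Sfi1 with 3100 bp in 2, Igf2bp1 with 2980 bp in 1 and Elf2 with 2840 bp in 2. Fgfr2 encodes a receptor for fibroblast growth factors, Brd2 a bromodomain protein, Igf2bp1 an RNA-binding protein and Elf2 an ETS factor. The annotated span of Fgfr2 is 3009 kb, through 1 transcript that starts far from the others. Zfp423 differed from Brd2, which has a single wide region as well, in its length of 297.8 kb against 10.3 kb. Distinct regions of at least 1 kb numbered 377, of which 84.4% lay at promoters.

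Between 100 and 300 kb from the edge of the 6 genes, the list held 3 further regions. One of 1560 bp on 3 rows lay 239.4 kb upstream of Zfp423, 0.573 kb from a TSS of Papd5, a gene for a poly(A) polymerase. The other pair, near Ebf2 and Ebf3, were the nearest regions already described for these genes, at 285.7 and 188.5 kb from the gene edge.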
